A study of Mus musculus with 10 samples.

Results

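The transcripts that encode the mouse receptors for the Fc part of IgG and IgE were followed in CD117+ splenocytes that had been exposed to lipopolysaccharide (LPS), a component of the outer membrane of Gram-negative bacteria. The set holds 8 genes: Fcgr1, Fcgr2b, Fcgr3, Fcgr4, Fcer1g, Fcer1a, Ms4a2 and Fcgrt. They were chosen by name, and each was read from the brightest probe set annotated with that symbol alone. All 8 had 1 such probe set, among 25664 symbols with a probe set of their own on the arrays.

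The cells came from the spleens of 5 wild-type (WT) C57BL/6 mice and 5 RasGRP4-null mice on the same background, all male and 9 to 12 weeks old. RasGRP4 is an exchange factor that activates Ras, and the null line was made by homologous recombination. CD117, the receptor for stem cell factor, is encoded by Kit, and the cells were taken by positive selection for it. Cells of each genotype were measured without LPS (0 h) and after 12, 24, 36 and 48 h with 1 µg/ml LPS, which gave 10 arrays, 1 for each genotype and time point. The methods name an anti-CD16/CD32 antibody that was added before the selection, and this antibody binds the proteins encoded by Fcgr3 and Fcgr2b.

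An antibody that has bound its target is read by cells through receptors for its Fc part. The activating IgG receptors, encoded in the mouse by Fcgr1, Fcgr3 and Fcgr4, need the common γ chain encoded by Fcer1g, which carries the activation motif that recruits the kinase Syk. The inhibitory receptor encoded by Fcgr2b carries an inhibition motif in its own tail, recruits the phosphatase SHIP1, and is the IgG receptor of B cells. The high-affinity IgE receptor of mast cells and basophils joins the IgE-binding chain encoded by Fcer1a, the β chain encoded by Ms4a2 and the same γ chain. Fcgrt encodes the neonatal Fc receptor, which binds IgG inside the cell and returns it to the surface, sparing it from degradation.

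The promoter windows of the IgG receptor genes, of the common γ chain and of Fcgrt are given because these members moved together or apart after LPS. Each runs from 250 bases before to 50 bases after a transcription start in RefSeq on build GRCm38.p6, and all 8 members matched the table. Windows are written 5′ to 3′ on the gene's strand. Capitals mark matches to 3 motifs that were searched on both strands: GAGGAA, the core bound by PU.1, TTCNNNGAA, the spacing bound by STAT factors, and the interferon response element, a pair of GAAA runs in 1 direction with any 2 bases between them.
Fcgr1 (chr3:96293920-96294219, minus strand): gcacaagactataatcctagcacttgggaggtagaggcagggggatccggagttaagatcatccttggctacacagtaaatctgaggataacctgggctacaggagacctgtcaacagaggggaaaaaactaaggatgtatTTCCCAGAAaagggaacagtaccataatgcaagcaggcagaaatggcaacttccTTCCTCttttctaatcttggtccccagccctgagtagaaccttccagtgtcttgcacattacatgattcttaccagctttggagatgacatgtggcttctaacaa
Fcgr3 (chr1:171059354-171059653, minus strand): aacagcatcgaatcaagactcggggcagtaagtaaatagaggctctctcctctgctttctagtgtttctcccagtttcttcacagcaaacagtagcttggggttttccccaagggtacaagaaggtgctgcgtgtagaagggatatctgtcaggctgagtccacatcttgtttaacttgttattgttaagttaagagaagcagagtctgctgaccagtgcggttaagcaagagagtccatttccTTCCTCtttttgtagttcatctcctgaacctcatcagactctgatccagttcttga
Fcgr4 (chr1:171018676-171018975, plus strand): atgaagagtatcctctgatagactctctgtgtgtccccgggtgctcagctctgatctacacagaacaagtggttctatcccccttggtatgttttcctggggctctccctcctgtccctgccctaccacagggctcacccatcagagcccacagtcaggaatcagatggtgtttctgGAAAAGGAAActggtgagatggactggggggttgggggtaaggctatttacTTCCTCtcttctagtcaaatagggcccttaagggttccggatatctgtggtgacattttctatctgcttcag
Fcer1g (chr1:171234300-171234599, minus strand): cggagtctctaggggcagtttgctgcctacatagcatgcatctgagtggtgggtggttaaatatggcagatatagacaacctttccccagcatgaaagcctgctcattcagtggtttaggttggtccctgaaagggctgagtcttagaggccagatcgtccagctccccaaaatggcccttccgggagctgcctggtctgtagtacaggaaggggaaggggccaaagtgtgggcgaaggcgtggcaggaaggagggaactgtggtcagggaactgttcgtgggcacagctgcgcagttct
Fcgrt (chr7:45103773-45104072, minus strand): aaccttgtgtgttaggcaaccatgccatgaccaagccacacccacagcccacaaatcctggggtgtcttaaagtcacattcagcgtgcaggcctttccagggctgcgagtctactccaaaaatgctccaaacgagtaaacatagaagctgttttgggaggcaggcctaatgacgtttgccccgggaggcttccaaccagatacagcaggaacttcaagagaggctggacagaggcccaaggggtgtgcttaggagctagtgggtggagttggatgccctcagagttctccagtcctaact
Fcgr2b (chr1:170976022-170976321, minus strand): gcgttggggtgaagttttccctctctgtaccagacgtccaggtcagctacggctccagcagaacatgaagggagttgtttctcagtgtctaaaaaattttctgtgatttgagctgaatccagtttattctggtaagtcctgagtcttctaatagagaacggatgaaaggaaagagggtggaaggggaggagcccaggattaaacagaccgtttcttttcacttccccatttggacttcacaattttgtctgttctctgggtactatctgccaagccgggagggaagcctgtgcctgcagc

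GAGGAA was found in the windows of Fcgr1, Fcgr3, Fcgr4 and Fcer1a, against 28.3% of 32851 promoter windows in the table. In Fcgr1, Fcgr3 and Fcgr4 it lay on the opposite strand, where it reads TTCCTC, within 55 bases before the start, and in Fcer1a it began 216 bases before it. Of the 2 start sites listed for Fcgr3, the window shown is that of the site farther upstream. TTCNNNGAA was found in the window of Fcgr1 alone among the members, 109 bases before the start (8.3% of all windows), and the interferon response element in that of Fcgr4 alone, 73 bases before the start (3.44% of all windows). None of the 3 motifs was in the windows of Fcgr2b, Fcer1g, Ms4a2 or Fcgrt. A match is a run of letters and was not tested as a binding site.

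Values are PLIER intensities, the deposited brightness of a probe set, and differences are on the log2(PLIER + 16) scale unless another scale is named. Background was taken on each array as the level that 95% of 1089 probe sets of olfactory receptors did not exceed, and it lay between 29.1 and 38.5. At 0 h Rasgrp4 was at 86.4 in WT cells and, below background, at 16.7 in RasGRP4-null cells. The WT value was above background but under the level that 99% of those probe sets did not exceed, 89.8 on that array. Rasgrp4 was below background on every LPS array of both genotypes, so it checks the genotype labels at 0 h only, through 1 array per genotype. Kit was above background on all 10 arrays, at 133.4 to 333.9. Kit, whose product the cells were selected by, is on the list of 11 mast cell markers. With Kit counted, 4 of the 11 were above background on both arrays of 0 h. So were 15 of 15 macrophage and monocyte markers, 12 of 12 B cell markers and 7 of 7 markers of conventional dendritic cells. The same held for 9 of 12 neutrophil, 7 of 8 NK cell and 7 of 8 T cell markers. The study describes these splenocytes as rich in dendritic cells. There was 1 array per condition, the time points of a genotype may come from 1 cell preparation, and no cells cultured without LPS were measured. The effect of LPS and that of culture therefore cannot be told apart. For 3 arrays of RasGRP4-null cells the source name states an earlier time than the title, and the series text lists another time point in place of 36 h. Titles were followed, so each 36 h value and the comparison of late with early LPS rest on them.

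The 3 activating IgG receptors were above background without LPS and fell to near background by 12 h in both genotypes. In the order 0, 12, 24, 36 and 48 h, Fcgr1, the high-affinity IgG receptor, was at 268.5, 59.6, 38.7, 41.5 and 38.1 in WT cells. The RasGRP4-null values were 274.2, 33.9, 28.1, 37.9 and 35.6. Both arrays of 0 h stood above all 8 arrays of LPS, 7 of which remained above background. The mean log2 change of the 4 LPS times was -2.40, with a standard error of 0.128 (adjusted p = 4.61e-08, limma). With LPS values below background set to background, the ratio of 0 h to LPS was 6.96.

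Fcgr3, the low-affinity activating receptor of macrophages, neutrophils, mast cells and NK cells, was at 238.7, 32.9, 22.4, 31.6 and 34.9 in WT cells. The RasGRP4-null values were 262.2, 25.2, 25.6, 21.1 and 29.4. After LPS it was above background on 3 of 4 WT arrays and on 0 of 4 RasGRP4-null arrays, and no LPS value approached those of 0 h. The log2 change was -2.61 (standard error 0.121, adjusted p = 1.48e-08 from limma). It was at least 7.93-fold lower, with values below background set to background.

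Fcgr4, which binds IgG2 antibodies on mouse monocytes, macrophages and neutrophils, followed the same course. It was at 179.1, 47.4, 49.0, 36.8 and 30.4 in WT cells and at 190.5, 19.9, 41.9, 35.7 and 24.3 in RasGRP4-null cells. The groups did not overlap, and 6 of 8 LPS values were above background, all 4 of WT cells among them. The log2 change was -1.99 (standard error 0.152, adjusted p = 7.9e-07 from limma). The ratio of 0 h to LPS was 4.96 with values below background set to background. Against a stricter background, which 99% of those olfactory receptor probe sets did not exceed, no LPS value of Fcgr1, Fcgr3 or Fcgr4 was above background.

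Among all 11185 genes tested, 69.6% were called over 12 to 48 h at an adjusted p below 0.05, of all genes 21.5% lower and 48.2% higher, with a median log2 change of 0.26. Fcgr1, Fcgr3, Fcgr4, Fcer1g and Fcgrt were among those lower, and Fcgr2b and Fcer1a among those higher. Genes were tested if they reached an intensity of 50 on at least 2 arrays. Fcgr3, Fcgr4 and Fcgrt did so only through the arrays of 0 h, Fcgr1 through those and WT 12 h, and Fcer1a only through those of 48 h, so that a difference was built into their entry. Ms4a2 did not reach that level. For genes of the lists below that stayed under 50 on all LPS arrays, such as Fgr, Siglece and C1qc, a difference was likewise built in. In bulk RNA, fewer cells of a type and less RNA per cell cannot be told apart.

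**Figure D1:**
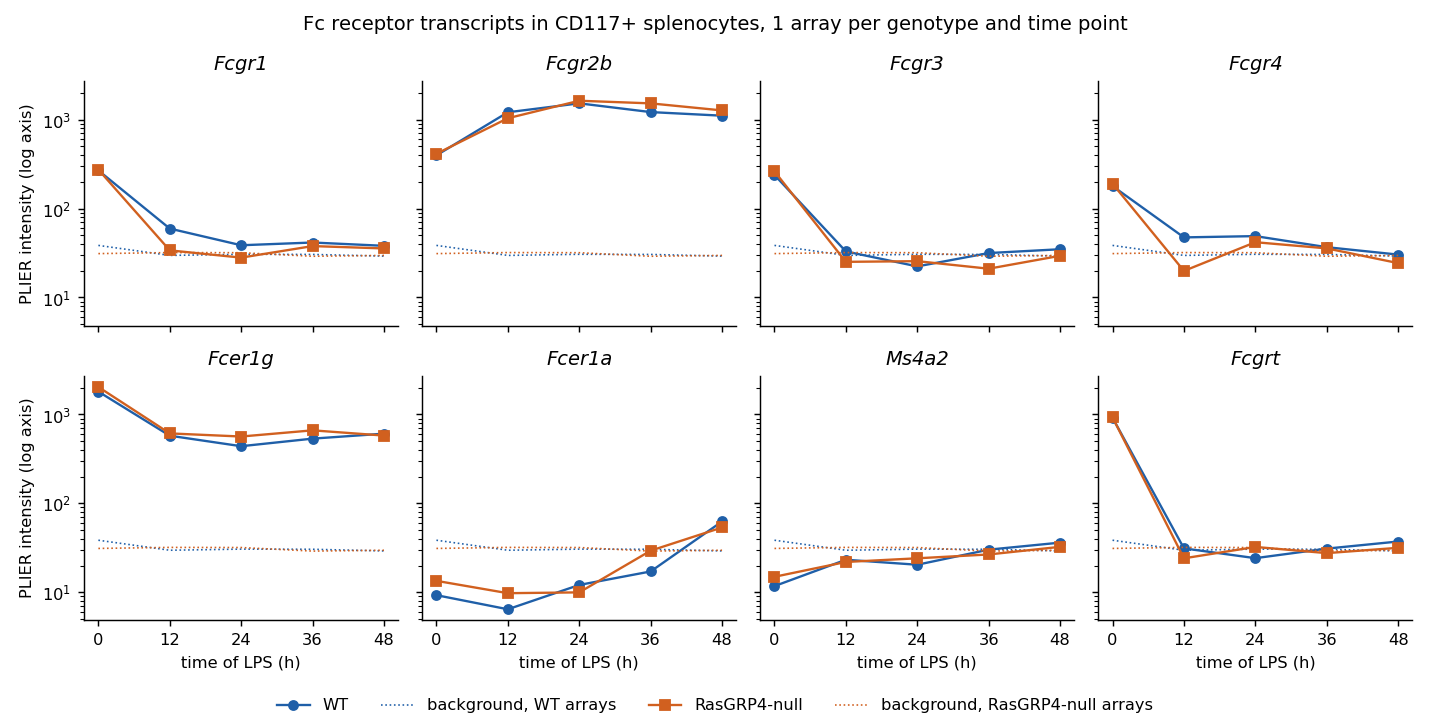
PLIER intensity (log axis) of the 8 Fc receptor genes against time of LPS in WT (blue circles) and RasGRP4-null (orange squares) cells, 1 array per point, with the background of each array as dotted lines. Fcgr1, Fcgr3, Fcgr4 and Fcgrt drop to near background by 12 h, Fcer1g drops and stays above it, Fcgr2b rises, and Fcer1a and Ms4a2 first exceed background at 36 or 48 h.

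Fcer1g, the signalling chain that these receptors share, also fell but stayed well above background. It was at 1809, 577.5, 439.9, 535.2 and 608.9 in WT cells and at 2039.6, 612.8, 565.3, 663.4 and 579.3 in RasGRP4-null cells. The lowest value at 0 h was above the highest after LPS, and all LPS values were also above the stricter background. The log2 change was -1.73 (standard error 0.112, adjusted p = 2.26e-07 from limma), a 3.37-fold lower level over both genotypes. Tyrobp, which encodes DAP12, another adaptor with an activation motif, went from 758.2 and 805.1 at 0 h to 81.1 to 127.8 after LPS (log2 change -2.79, standard error 0.112, adjusted p = 4.46e-09 from limma). Of the 6 adaptors of this kind that were tested, 3 fell, 1 rose and 2 did not pass, with a median log2 change of -0.42. The one that rose was Cd79b of the B cell receptor (0.42, adjusted p = 0.0116). All 6 fell on the GAPDH-normalized scale, on which most genes are lower, Cd79b among them (-0.64).

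Among the tested members Fcgr2b, the inhibitory receptor, was the one that rose at the first time point. It was at 397.1, 1211, 1527, 1217 and 1108 in WT cells and at 413.3, 1038, 1633, 1525 and 1271 in RasGRP4-null cells. Each LPS value was above both values of 0 h, with the highest at 24 h in each genotype. The log2 change was 1.64 (standard error 0.118, adjusted p = 4.62e-07 from limma), a ratio of 3.21. B cell markers were read on the same arrays. Of 12 B cell markers tested, 4 rose, 3 fell and 5 did not pass, with a median of 0.05 and summed intensities of 9316 to 10337 at 0 h and 5191 to 11253 after LPS. All 12 fell on the GAPDH-normalized scale that is described next. Their part in the level of Fcgr2b was not tested.

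These directions were read again on the GAPDH-normalized scale of the study, on which each array is multiplied by a factor that brings Gapdh to 1 level. Gapdh itself was lower at 0 h (1487 and 1633) than after LPS (2815 to 3893), and its probe set is annotated with 21 symbols, unlike those of the members. The factors were 2.24 and 2.41 at 0 h and 1.00 to 1.31 after LPS. On that scale the median of all genes was -0.70 rather than 0.26, and 955 genes were higher and 7735 lower, against 5388 higher and 2402 lower on the PLIER scale. Fcgr2b still rose (log2 change 0.60, adjusted p = 0.00109 from limma), at 31.1% to 45.8% of Gapdh after LPS against 24.3% and 27.8% at 0 h. Beyond the median of all genes its change was 1.38 for PLIER values and 1.31 for GAPDH-normalized ones. For Fcgr1, Fcgr3, Fcgr4, Fcer1g and Fcgrt the change beyond the median was -2.66, -2.87, -2.25, -1.99 and -4.62 for PLIER values and -2.76, -2.98, -2.33, -2.09 and -4.76 for GAPDH-normalized ones, in that order.

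The study's methods count a transcript as changed when it exceeds 1% of Gapdh in the LPS sample and differs more than 3.6-fold from cells without LPS. By that rule Fcer1g was lower on 8 of 8 LPS arrays, Fcgr1 on 7, Fcgr4 on 4, and Fcgr3 and Fcgrt on 1 each. Where the 1% was asked of the brighter of the arrays compared instead, a change to the rule made here so that a transcript may fall below it, these 5 genes were lower on 8 of 8 arrays each. Fcgr2b, Fcer1a and Ms4a2 met neither form, in either direction. In the changed form with Actb in place of Gapdh, Fcer1g was lower on 3 of 8 arrays, Fcgr2b higher on 1 and Fcer1a higher on 2.

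The activating and the inhibitory low-affinity receptor were set against each other within each array, where a scaling of the whole array largely cancels. The mean difference below was -4.25 for PLIER values and between -4.29 and -4.24 for GAPDH-normalized and quantile-normalized ones. Since both values come from different probe sets, only the change of their difference is read. At 0 h Fcgr3 minus Fcgr2b was -0.70 (WT) and -0.63 (RasGRP4-null). In WT cells it was -4.65, -5.33, -4.70 and -4.47 at 12, 24, 36 and 48 h, and in RasGRP4-null cells -4.68, -5.31, -5.38 and -4.82. All 8 LPS arrays were below both arrays of 0 h, with a mean difference of -4.25. Fcgr3 was not above background on 5 of the 8 LPS arrays, so this value is a bound set by background and pseudocount. With those values of Fcgr3 set to background it was -4.13, and the highest LPS array was at -4.46. The test that follows moved the 0 h label freely over all arrays, although each genotype has 1 array of 0 h. It also took the time points of a genotype as separate samples, though they may come from 1 cell preparation. No test within genotypes was run, so the p-value describes the order of these 10 arrays only. An exact two-sided permutation test over the 45 ways to choose 2 of 10 arrays gave p = 0.0444, the smallest it can give. With 1 array left out it cannot go below 0.0556, or 0.222 where that array is of 0 h.

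**Figure D2:**
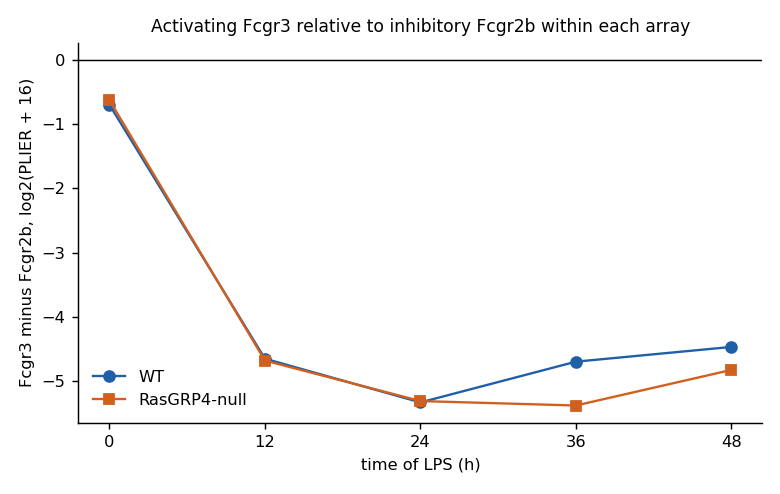
Difference of Fcgr3 and Fcgr2b on the log2(PLIER + 16) scale within each array, against time of LPS, in WT (blue circles) and RasGRP4-null (orange squares) cells. Both genotypes start at -0.70 and -0.63 and lie between -5.38 and -4.47 from 12 h on.

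Fcgrt went from well above background to near it. It was at 919.6, 31.2, 24.2, 31.0 and 37.3 in WT cells and at 927.2, 24.1, 32.4, 27.6 and 31.7 in RasGRP4-null cells. After LPS it was above background on 5 of 8 arrays, by little, and at 0.73% to 1.09% of Gapdh against 56.3% and 62.3% at 0 h. The log2 change was -4.36 (standard error 0.117, adjusted p = 2.31e-10 from limma), and the level was at least 29.0-fold lower with values below background set to background. B2m, the light chain that pairs with the product of Fcgrt and with MHC class I, was higher by 0.26 (standard error 0.097, adjusted p = 0.0347 from limma), close to the median change of all genes (0.26), and was at -0.81 on the GAPDH-normalized scale (adjusted p = 1.22e-04).

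The chains of the IgE receptor that are not shared with IgG receptors took another course. Fcer1a was below background at 0, 12 and 24 h in both genotypes. It was at 9.29, 6.44, 12.1, 17.2 and 62.6 in WT cells and at 13.5, 9.77, 9.98, 29.4 and 53.6 in RasGRP4-null cells. Only the arrays of 48 h and the RasGRP4-null array of 36 h were above background, and none was above the stricter one. At 48 h the level had changed by 1.44 on the log2 scale from 0 h (standard error 0.164, adjusted p = 2.62e-05 from limma), when 43.7% of all genes were higher. Both values of 0 h were below background, so the size of this change was not measured. Against 0 h set to background, the level at 48 h was at least 1.62-fold higher in WT and 1.72-fold higher in RasGRP4-null cells. At 36 h the fitted change was 0.51 (adjusted p = 0.0194), while 12 h (-0.18, adjusted p = 0.352) and 24 h (-0.01, adjusted p = 0.947) did not pass.

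As a mean of the 4 LPS times, Fcer1a changed by 0.44 (standard error 0.130, adjusted p = 0.0108 from limma). That value was -0.11 on the GAPDH-normalized scale (adjusted p = 0.546) and -0.10 over 12 and 24 h alone (adjusted p = 0.57). Without the WT array of 0 h the value was 0.37 (adjusted p = 0.11), and no other array left out ended the call. The difference between late and early LPS does not involve the arrays of 0 h. The mean of 36 and 48 h was above that of 12 and 24 h for Fcer1a by 1.07 (standard error 0.116, adjusted p = 1.62e-04 from limma), in both genotypes, with 26.6% of all genes called in this comparison and 16.7% higher. On the GAPDH-normalized scale it was 1.11, and without the filter on low values, through which 48 h brought the gene into the test, the adjusted p was 2.19e-04. All 4 early values were below background. Against those set to background, 48 h was at least 2.08-fold higher in WT and 1.68-fold higher in RasGRP4-null cells. No other member passed that comparison, with values from -0.19 for Fcgr4 to 0.12 for Fcgrt and Fcer1g, though Fcgr4 passed (-0.37, adjusted p = 0.0270) without the RasGRP4-null array of 12 h.

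Ms4a2, the β chain, was too dim for the test. It was at 11.7, 23.2, 20.4, 30.2 and 36.2 in WT cells and at 14.9, 21.9, 24.1, 26.6 and 32.5 in RasGRP4-null cells. It was above background at 48 h alone, in both genotypes, and not above the stricter background on any array. In a fit without the filter on low values its mean log2 change over the LPS times came to 0.54 (standard error 0.10, adjusted p = 0.00111 from limma over 25664 genes), and its change between early and late LPS was 0.30 (adjusted p = 0.0585). With Gapdh scaling the groups overlapped, at 26.3 and 36.0 at 0 h and 23.2 to 40.9 after LPS. Both PLIER values of 0 h were below background, and against 0 h set to background 48 h was not higher in WT cells (ratio 0.94) and 1.04-fold higher in RasGRP4-null cells.

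Mast cell and basophil markers were read on the same arrays. Cpa3, a mast cell carboxypeptidase also made by basophils, was at 79.4, 102.0, 115.0, 283.3 and 516.0 in WT cells and at 194.5, 184.1, 155.0, 302.1 and 479.8 in RasGRP4-null cells. Its late values exceeded its early ones by 1.39 (adjusted p = 3.39e-04 from limma). Mcpt8, a basophil protease, was at 21.5, 28.4, 36.8, 43.7 and 68.4 in WT cells. The RasGRP4-null values were 25.9, 60.4, 30.1, 49.0 and 61.0, and both values of 0 h were below background. Between late and early LPS Mcpt8 did not pass (0.40, adjusted p = 0.0625 from limma). Of 11 mast cell markers, Kit among them, 6 were above background on both arrays of 48 h. Their summed intensity ran from 574.0 to 734.2 at 0 h and from 419.1 to 1119 after LPS. Kit alone was at 286.8 and 292.1 at 0 h and at 133.4 to 333.9 after LPS. Of the 5 that were tested for late against early LPS 1 rose and 4 did not pass. Of 4 basophil markers, 3 were above background at 48 h, and Cd200r3 was below it on all arrays. Prss34, another basophil marker, went the other way from Mcpt8. It was at 66.55 and 67.81 at 0 h and at 35.57 to 46.72 after LPS (-0.52, adjusted p = 0.0018 from limma). Il3ra did not pass (0.06, adjusted p = 0.6545). The part of these cells in the level of Fcer1a was not tested.

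**Figure D3:**
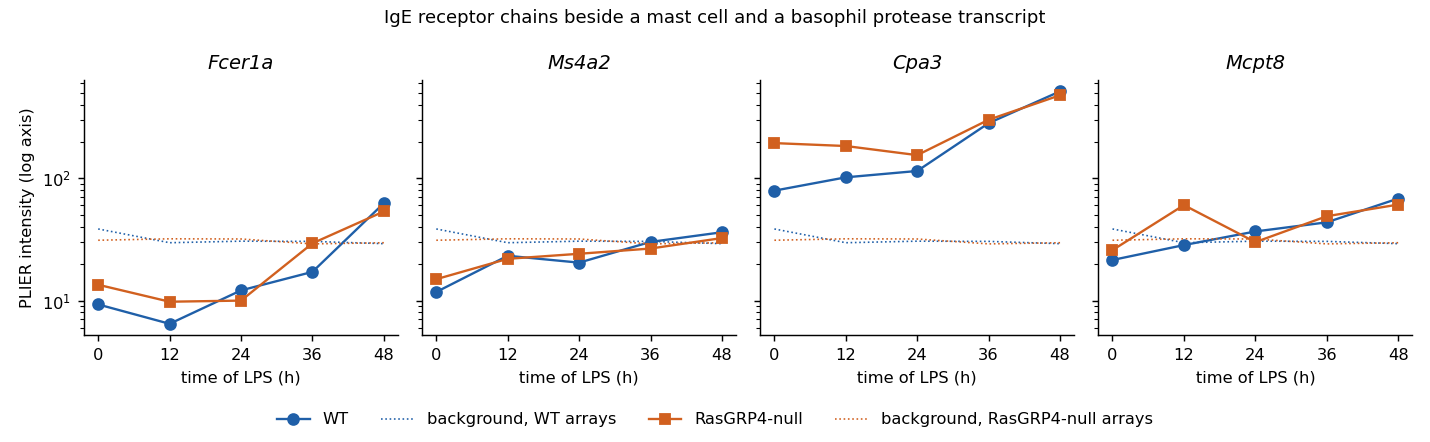
PLIER intensity (log axis) of Fcer1a and Ms4a2, the IgE receptor chains, and of Cpa3 and Mcpt8, against time of LPS in WT (blue circles) and RasGRP4-null (orange squares) cells, with the background of each array as dotted lines. Fcer1a and Cpa3 are highest at 48 h in both genotypes, and Ms4a2 exceeds background only there.

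The time points after LPS were compared with 0 h one by one. Fcgr1, Fcgr3, Fcgr4, Fcer1g and Fcgrt were lower and Fcgr2b was higher at each of 12, 24, 36 and 48 h. Of all genes 19.9%, 20.0%, 17.9% and 17.7% were lower at these times, and 41.9%, 39.3%, 43.7% and 43.7% were higher. For Fcgr1 the changes ran from -2.23 at 12 h to -2.55 at 24 h, and for Fcgr3 from -2.47 at 48 h to -2.74 at 24 h. Fcgr4 lay between -2.22 at 48 h and -1.71 at 24 h, Fcer1g between -1.91 at 24 h and -1.66 at 36 h, and Fcgrt between -4.43 at 12 h and -4.22 at 48 h. Fcgr2b changed by 1.43, 1.92, 1.71 and 1.51 in the order of time. For these genes most of the change seen at 48 h was thus present at 12 h, the first LPS time point measured.

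**Figure D4:**
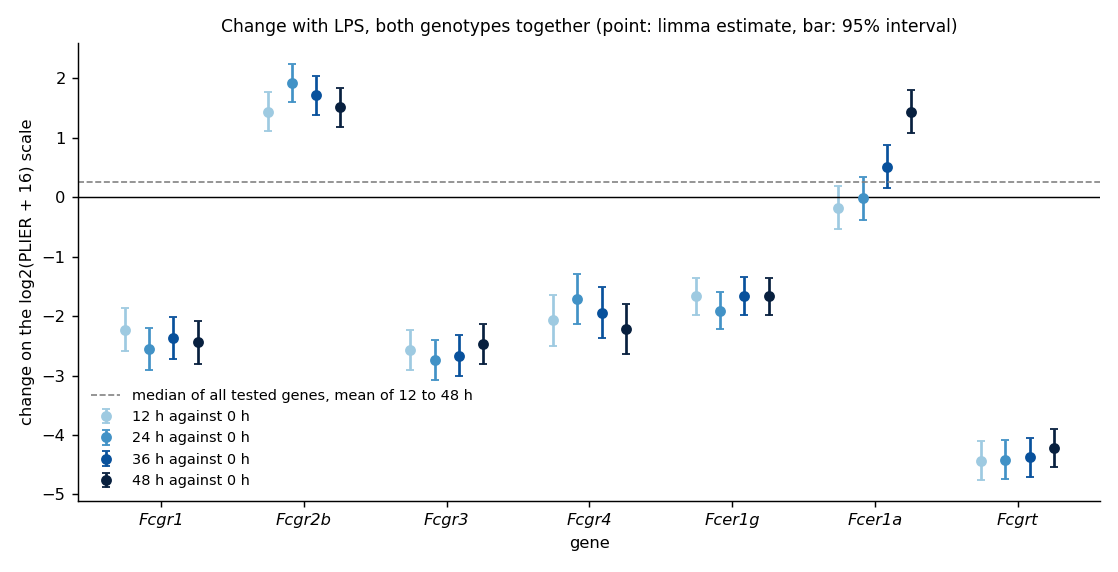
Change from 0 h on the log2(PLIER + 16) scale of the 7 tested Fc receptor genes at each LPS time point, both genotypes together; points are limma estimates and bars 95% intervals. The dashed line is the median of all tested genes (0.26), and Fcer1a is the gene whose change grows with time, from -0.18 at 12 h to 1.44 at 48 h.

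No Fc receptor transcript differed between the genotypes by the test. RasGRP4-null minus WT over all time points was -0.23 for Fcgr4 (95% interval -0.50 to 0.04) and -0.21 for Fcgr1 (-0.43 to 0.02), the members lowest in RasGRP4-null cells. It was 0.17 for Fcer1g (-0.03 to 0.36), 0.12 for Fcer1a (-0.11 to 0.35) and 0.09 for Fcgr2b (-0.12 to 0.30). For Fcgr3 it was -0.11 (-0.32 to 0.11) and for Fcgrt -0.05 (-0.25 to 0.16). Adjusted p-values ran from 0.584 to 0.946 in limma, with 0.179% of all genes called. The intervals leave room for a difference of up to 0.50 on the log2 scale for Fcgr4, and of 0.43 for Fcgr1. Both rested largely on 12 h: without an array of 12 h they were -0.0795 and -0.11, and over 0, 36 and 48 h alone -0.0499 and -0.0450.

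Fcgr1 and Fcgr4 were lower in RasGRP4-null cells at each of the 4 LPS time points and higher at 0 h. The gap was widest at 12 h, at -0.60 for Fcgr1 and -0.82 for Fcgr4. At that time both were above background in WT cells, at 59.6 and 47.4, while in RasGRP4-null cells Fcgr4, at 19.9, was not. At 36 h the differences were -0.10 and -0.03. There is 1 array on each side of each gap, so none has a test of its own. Fcer1g was higher in RasGRP4-null cells at 4 of 5 time points and Fcgr2b at 4 of 5.

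The size of the LPS response was compared between genotypes with an interaction term. It was -0.39 for Fcgr4 (95% interval -1.03 to 0.25), -0.30 for Fcgr1 (-0.84 to 0.25), -0.29 for Fcgr3 (-0.81 to 0.23) and 0.04 for Fcgr2b (-0.49 to 0.58). Fcer1a was at -0.13, Fcgrt at -0.07 and Fcer1g at -0.01. Adjusted p-values from limma were 0.857 to 0.998, with 0.179% of all genes called, and the intervals are wide.

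**Figure D5:**
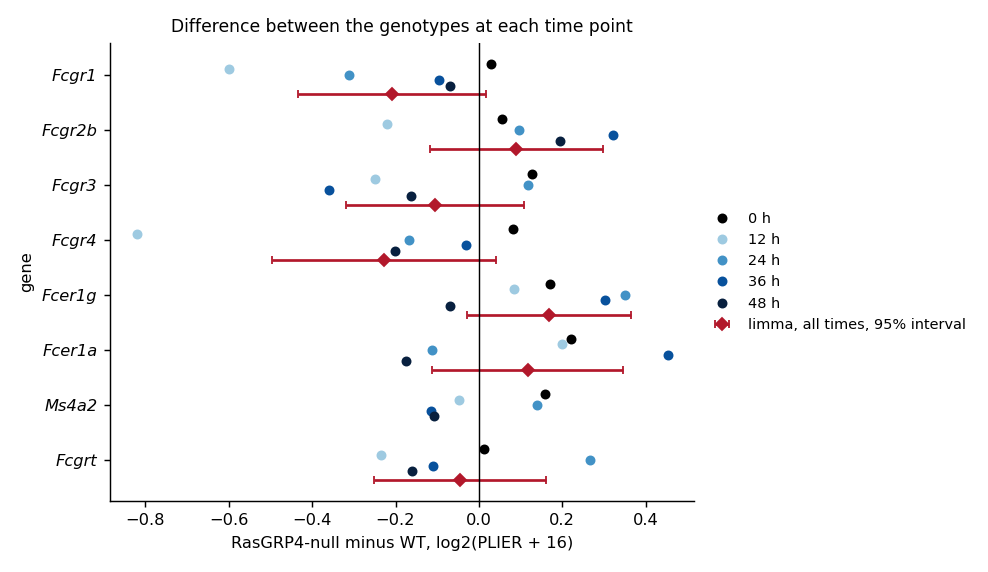
RasGRP4-null minus WT on the log2(PLIER + 16) scale for each Fc receptor gene at each time point (dots, 1 array per side) and over all time points (red diamonds with 95% intervals from limma; Ms4a2 was not tested). Dots fall on both sides of 0 for every gene, and each interval includes 0.

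The genes around these receptors were read from fixed lists, against 48.2% of all genes higher and 21.5% lower on the PLIER scale and 8.54% higher and 69.2% lower on the GAPDH-normalized scale. Many genes that rose on the first scale did not on the second, and both are given. Transcripts of other Fc receptors were taken from a list that held receptors of IgM, IgA and IgE, Fc receptor-like proteins and Trim21. Of 10 on the array 7 were tested, and 2 rose, 4 fell and 1 did not pass, with a median log2 change of -0.24. Fcer2a, which encodes CD23, the low-affinity IgE receptor of B cells, was at 1189 and 1059 at 0 h and at 31.4 to 60.4 after LPS (-4.31, standard error 0.147, adjusted p = 1.22e-09 from limma). Fcrl5, an Fc receptor-like protein of B cells, went the other way, from 179.3 and 168.5 to 431.6 to 773.1 (1.82, standard error 0.129, adjusted p = 4.45e-07). Trim21, which binds antibody in the cytosol, rose by 1.03 (adjusted p = 1.33e-05). On the GAPDH-normalized scale 1 rose (Fcrl5, 0.82, adjusted p = 7.89e-05), 5 fell and Trim21 did not pass (0.0835, adjusted p = 0.644), with a median of -1.29. The IgM receptor, under its older symbol Faim3, fell by 0.61 on the log2 scale (adjusted p = 0.00193), and Fcrlb by 0.64 (adjusted p = 0.00168).

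For the kinases and adaptors that act below the activating receptors the count depended on the scale. Of 19 tested, 2 rose, 9 fell and 8 did not pass, with a median of -0.23. Fgr, a Src family kinase of myeloid cells, was at 334.8 and 335.7 at 0 h and at 24.0 to 47.0 after LPS (-2.76, standard error 0.144, adjusted p = 3.9e-08 from limma). Lcp2, which encodes the adaptor SLP-76, fell by 1.87, Grap2 by 1.16 and Lat by 0.78 on the log2 scale. Sh3bp2 (0.44, adjusted p = 0.00726) and Pik3cd (0.31, adjusted p = 0.0301) rose. Syk itself was at 743.4 and 644.0 at 0 h and at 470.5 to 672.9 after LPS (-0.23, adjusted p = 0.0642). With GAPDH-normalized values all 19 fell, with a median of -1.28, and Syk was at 1665 and 1552 at 0 h and at 474.1 to 732.9 after LPS (-1.28, adjusted p = 1.62e-06).

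Of the inhibitory phosphatases and adaptors, 3 rose, 3 fell and 1 did not pass among 7 tested, with a median of 0.06. Inpp5d, which encodes SHIP1, the phosphatase recruited by the product of Fcgr2b, was at 731.5 and 565.3 at 0 h and at 322.5 to 501.6 after LPS (-0.55, standard error 0.125, adjusted p = 0.00222 from limma). Dok3 (-0.64) and Csk (-0.56) also fell, and Dok1 (0.83), Cblb (0.64) and Ptpn11 (0.36) rose. On the GAPDH-normalized scale 5 fell, Inpp5d (-1.61) and Ptpn11 (-0.66) among them, and Dok1 and Cblb did not pass. Inpp5d thus fell and Fcgr2b rose on both scales. Of 10 other receptors with an inhibition motif that were tested, 6 fell, 1 rose and 3 did not pass, with a median of -1.34. Clec12a (-3.46), Siglece (-3.27), Clec4a2 (-2.97) and Sirpa (-2.63) fell, and Cd72 of B cells rose (0.69, adjusted p = 2.38e-04). Siglece, Cd300a and Clec4a2 reached the level needed for testing only through the arrays of 0 h. Their highest LPS values were 32.1, 23.3 and 7.06. A difference was thus built into their entry, and the count and the median include them. Clec12a was at most at 50.1 after LPS. All 10 fell with GAPDH-normalized values, Cd72 included (-0.36, adjusted p = 0.0414).

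Genes on a list of other receptors that signal through the common γ chain were divided. The list also held Clec7a, whose product does not depend on that chain and which is counted among those that fell (-1.64). Of 8 tested, 3 rose, 3 fell and 2 did not pass, with a median of 0.16. Clec4e, which encodes Mincle, was at 18.9 and 15.0 at 0 h, below background, and at 73.4 to 168.3 after LPS (1.81, standard error 0.153, adjusted p = 1.64e-06 from limma). Clec4n, which encodes Dectin-2, fell by 2.73 and Cd300ld by 1.63 on the log2 scale. With GAPDH-normalized values Clec4e rose (1.19, adjusted p = 3.16e-06), 5 fell and 2 did not pass. In a list of receptors of complement, which also held B2m, 3 fell and 3 rose of 6 tested, those that rose being B2m, Cr1l (0.34) and C3ar1 (0.73). None of the 6 rose on the GAPDH-normalized scale, where 5 fell and C3ar1 did not pass. Cr2, the complement receptor CD21, fell by 2.39 and Itgam, the α chain of complement receptor 3, by 1.27.

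Most markers of macrophages, monocytes and neutrophils fell, as the activating receptors did, while those of NK cells and mast cells were divided. Among 15 markers of macrophages and monocytes 14 fell and Ly6c2 rose, with a median of -4.41. Their summed intensity was 21589 and 22757 at 0 h and 1620 to 2924 after LPS. C1qc, Cd5l and Csf1r were below background on all 8 LPS arrays, C1qc after 5842 and 6537 at 0 h. All 9 neutrophil markers that were tested fell (median -3.72), and 0 of 12 were above background on all LPS arrays. Their part in the fall of Fcgr1, Fcgr3, Fcgr4, Fcer1g and Fcgrt was not tested. NK cell markers, which could also mark Fcgr3 and Fcer1g, were divided, with 3 of 6 higher, 2 lower and 1 that did not pass. Of 5 mast cell markers tested over 12 to 48 h, 2 rose, 1 fell and 2 did not pass (median 0.12). On the GAPDH-normalized scale 0 of these 5 rose and 3 fell. Of 7 markers of conventional dendritic cells 5 fell and 2 rose (median -0.75), with a summed intensity of 3120.3 and 3240.8 at 0 h and 1698 to 2118 after LPS. With GAPDH-normalized values none of these 7 rose and 6 fell, and of the 6 NK cell markers 1 rose and 3 fell.

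The genes whose profile over the 10 arrays was most like each of the 7 tested members were taken by Pearson's r of the log2 values. For Fcgrt these were Clec4a3, Hfe and C1qc (r = 0.998 each), and for Fcgr3 Ifitm6 (0.997), Fcgrt (0.995) and Rgl1 (0.995). For Fcgr1 they were Siglece, Snord61 and Tlr13 (0.992 each), for Fcgr4 5031439G07Rik, Wdfy4 and Mpc2 (0.983 to 0.99), and for Fcer1g Hes1, Mir668 and Sirpa (0.992 to 0.995). For Fcgr2b they were Pola2 (0.994), Blm (0.99) and Cdc6 (0.99), whose own changes over 12 to 48 h were 1.34, 1.62 and 1.95. Fcer1a had Sil1 (0.954), Fnip1 (0.947) and Ciz1 (0.911). The arrays share the step from 0 h to LPS, and between 95 and 485 genes had r over 0.95 with each of these members other than Fcer1a, which had 1.

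Fcgr2b, Fcgr4, Fcgr3 and Fcer1g lie near each other on chromosome 1 in the RefSeq order of genes. Fcgr4 and Fcgr3, which fell, are the next genes after Fcgr2b, which rose. Sdhc (0.21, adjusted p = 0.211 from limma) and Tomm40l (0.20, adjusted p = 0.127), which are among the genes between Fcgr3 and Fcer1g, did not pass.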

How the data were processed

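Total RNA of CD117+ splenocytes was hybridized to Affymetrix MoGene-2.0-st arrays. PLIER intensities, made by the authors in Affymetrix Expression Console, were deposited as they are and after multiplication by a factor of each array that sets Gapdh to a like level. Another 10 deposited columns were not used. Versions and genome build are not given in the sources used here. The column names carry the word Sketch, so arrays may have been brought to similar distributions before deposit, and no depth applies to arrays.

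Of 41345 probe sets, 26679 carried 1 symbol, and the brightest per symbol was kept. Genes with an intensity of at least 50 on 2 or more arrays (11185) were fitted with limma 3.58.1 in R 4.3.3 on log2(PLIER + 16), with terms for genotype and time point, or also for genotype by LPS, which left 4 or 3 residual degrees of freedom. All p-values are two-sided and Benjamini-Hochberg adjusted over all genes, with a threshold of 0.05, and the procedure was tested on simulated data. With 1 array per condition, p-values measure the spread between genotypes around a shared time course.

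Named genes are all 8 members, up to 4 genes per list with the smallest p and those that go against their list, and the 3 genes with the highest Pearson r to each member; other genes were named after their values were seen. Members and lists were chosen with earlier results of these data known. The alternatives were other pseudocounts, scalings, filters, probe sets, time points, an intensity trend, each array left out and the methods' t-test. Not every gene between Fcgr3 and Fcer1g is reported here.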

Additional observations from a re-analysis of the deposited data

How the results depend on the processing

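The directions and calls of Fcgr1, Fcgr2b, Fcgr3, Fcgr4, Fcer1g and Fcgrt over 12 to 48 h held under all 12 alternatives and with each array left out. Over all of these the change of Fcgr2b lay between 0.60 and 1.69. Fcer1a turned to -0.11 with GAPDH-normalized values or those of the value table and to -0.10 over 12 and 24 h alone. Between late and early LPS Fcgr1 (0.0569) and Fcgr2b (0.0399) changed sign with Actb-normalized values, and Fcgr1 lay between -0.14 and 0.10 and Fcgr2b between -0.16 and 0.0318 with an array left out. Fcgr4 passed (-0.37, adjusted p = 0.0270) without the RasGRP4-null array of 12 h.

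Between genotypes no member passed under any setting run. Fcgr2b turned to -0.0226 over 12 and 24 h, and Fcgrt to 0.0044 with the value table, to 0.0148 over 12 and 24 h and to 0.0022 without either array of 12 h. For the difference in LPS response Fcer1g turned to 0.0445 with quantile normalization and 0.0455 over 12 and 24 h (-0.0665 to 0.0737 with an array left out), Fcgr2b to -0.0162 with GAPDH-normalized values, -0.0168 with the value table and -0.12 over 12 and 24 h (-0.0320 to 0.15), and Fcgrt to 0.0046 over 12 and 24 h. The cause was not tested.

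The count of all genes called between genotypes, 20, was 11 and 12 with pseudocounts of 1 and 64, 8 with quantile normalization, 56 with Actb-normalized values, 9 without a filter, 10 with all probe sets, 10 over 12 and 24 h, 1 over 36 and 48 h, 0 by the methods' t-test (848 before adjustment) and 1 to 25 with an array left out. The count for the difference in response, also 20, was 32 and 7 with those pseudocounts, 58 with Actb-normalized values, 53 without a filter, 4 with a filter at 100, 35 over 12 and 24 h, 475 over 36 and 48 h and 1 to 20 with an array left out. The count between late and early LPS, 2972, was 1684 to 3038 with an array left out. Fcgr3 minus Fcgr2b stayed between -4.32 and -4.19 with an array left out, and between -4.82 and -3.32 under the other alternatives. Values above background fell from 54 to 28 of the 8 genes on 10 arrays with the 99th percentile. The labels give no replicate numbers, and genotypes were paired by time point in the limma fit and in the methods' t-test. Changes counted by the study's own fold rule, with the 1% asked of the LPS array, were 21. In the form changed here, with the 1% asked of the brighter array, they were 40. The changed form was the one planned, and the count by the study's own form was added after seeing the data. Low signal limits Fcer1a and Ms4a2, and the number of arrays limits all precision.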
